A study of Mus musculus with 117 samples.

Results

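The collagen genes of the mouse were followed through 12 groups of sorted normal cells and 7 kinds of tumour. Members were all genes with a symbol made of Col, a chain type number, the letter a and a chain number, read from the annotation of the deposited array table. A probe set counted only if it named a single gene, and where a gene had several the one with the highest mean over the 117 arrays was used. The rule gave 42 collagen genes out of 17097 genes with such a probe set, read by 68 probe sets in all, with 21 members having more than 1. The rule itself uses names and overall brightness, not a difference between groups.

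RNA came from C57BL/6 mice. Normal prostate, lung, intestine, liver, stomach and uterus were dissociated into single cells and divided with magnetic beads coated with antibody to Prom1, a membrane protein of many epithelial progenitor cells. Each tissue gave a Prom1-positive and a Prom1-negative group. Prostate gave 3 positive and 5 negative samples, as did intestine. For lung the numbers were 3 positive and 7 negative, for liver 4 positive and 7 negative, for stomach 3 positive and 4 negative, and for uterus 4 positive and 3 negative. The 66 tumours, frozen as pieces of whole tissue and not sorted, were 10 prostatic adenocarcinomas, 14 bronchial papillary adenomas, 13 hepatocellular carcinomas, 11 gastric adenocarcinomas, 3 B-cell lymphomas, 6 skin tumours of squamous cell type and 9 adenocarcinomas of the uterus. The series mentions conditional Prom1 mutants, but its labels give no allele, inducer, age or sex for any single sample, so none could be used. Nor do the labels say which samples came from separate animals, so the p-values measure only the spread between these samples. In this bulk RNA, fewer cells of a type and less RNA per cell cannot be told apart.

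Collagens are secreted or membrane proteins whose chains wind in threes into a rigid triple helix built from repeats of glycine followed by a pair of other residues. Fibrillar collagens form the tensile fibrils of connective tissue and are made mainly by fibroblasts and smooth muscle, while type IV collagens form the sheet of every basement membrane and come from epithelium, endothelium and mesenchyme. Smaller classes decorate fibrils, form beaded filaments around cells, span the plasma membrane, or anchor stratified epithelium to the tissue beneath it.

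Several collagen genes lie beside one another in the genome, and the sequences between or before their start sites are shown because some of these pairs had nearly the same pattern of levels over the 19 groups and others did not. All come from RefSeq for mouse assembly GRCm38.p6 and are written 5′ to 3′, with any GC box, the letters GGGCGG read on either strand, in capitals. Col4a1 and Col4a2, which encode the chains of the ordinary basement membrane network, are transcribed away from each other on chromosome 8. The start sites used here bound 22 bases at chr8:11312805-11312826 that both genes contain, within a longer overlap of the annotated genes. Col4a5 and Col4a6 are likewise divergent on the X chromosome, with the printed stretches at chrX:141475169-141475369 on the plus strand and chrX:141474096-141474326 on the minus strand. Col6a1 and Col6a2 follow one another on the minus strand of chromosome 10, with stretches at chr10:76726045-76726294 and chr10:76623631-76623880.
Col4a1 and Col4a2, shared start, plus strand: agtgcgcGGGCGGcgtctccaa
Col4a5, upstream: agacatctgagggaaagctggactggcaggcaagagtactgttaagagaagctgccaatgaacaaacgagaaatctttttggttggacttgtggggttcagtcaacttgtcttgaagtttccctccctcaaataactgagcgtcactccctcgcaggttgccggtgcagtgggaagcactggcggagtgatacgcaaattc
Col4a6, upstream: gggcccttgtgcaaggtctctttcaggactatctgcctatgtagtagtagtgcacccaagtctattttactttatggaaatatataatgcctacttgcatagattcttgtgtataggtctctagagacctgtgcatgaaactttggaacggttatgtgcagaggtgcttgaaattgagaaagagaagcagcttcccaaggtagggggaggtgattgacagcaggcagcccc
Col6a1, upstream: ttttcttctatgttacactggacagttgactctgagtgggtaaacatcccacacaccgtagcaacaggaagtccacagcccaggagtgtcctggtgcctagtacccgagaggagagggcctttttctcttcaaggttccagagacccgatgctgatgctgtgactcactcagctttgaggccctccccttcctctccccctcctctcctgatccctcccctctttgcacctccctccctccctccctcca
Col6a2, upstream: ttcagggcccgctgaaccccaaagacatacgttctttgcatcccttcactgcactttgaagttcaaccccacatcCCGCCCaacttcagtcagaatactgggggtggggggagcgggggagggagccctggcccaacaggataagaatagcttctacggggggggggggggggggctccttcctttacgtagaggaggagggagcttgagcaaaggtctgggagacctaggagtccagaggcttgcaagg
A GC box lay within the 22 bases between the Col4a1 and Col4a2 starts and 1 lay upstream of Col6a2. The printed stretches of Col6a1, Col4a5 and Col4a6, which end where the annotated gene begins, held 0. Bases G and C made up 49.8% of the Col4a5 stretch, 45.5% of the Col4a6 stretch, 56% of the Col6a1 stretch and 59.2% of the Col6a2 stretch. Windows of 300 bases, from 250 before to 50 after a start site, were at hand for 33 of the 42 members. The windows of Col4a5 and Col4a6 each held 1 GC box, not contained in the printed bases, and the Col6a1 window held 0. A GC box occurred in such a window in 21 of the 33 (63.6%), against 35.7% of all 32851 windows. These shares differ in unit, here and below. A member counted if any of its windows matched (36 windows for the 33), whereas the comparison is by window. The letters CCAAT were found in 13 members (39.4%, against 37.4% of all windows) and TATAAA in 5 (15.2%, against 13.6%), both strands being read and overlaps between motifs being allowed. These are letter matches and were not tested.

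All values are log2 signals. Array medians lay between 3.63 and 4.01, and a member was called above the median of its arrays by group means. The upper quartile of an array ran from 5.05 to 6.53 and was under 6 in 6 arrays, all of sorted lung, liver or stomach. Signals at the 3′ end of Actb exceeded those at its 5′ end by 1.54 ± 0.19 (SD, n = 4) in Prom1-positive liver cells and 0.60 ± 0.13 (n = 7) in the negative ones, by 1.07 ± 0.18 (n = 3) against 0.75 ± 0.10 (n = 5) in prostate, and by 0.81 ± 0.26 (n = 4) against 1.54 ± 1.07 (n = 3) in uterus. Prom1 itself was higher in the positive cells of prostate (+1.76, SE 0.41, adjusted p = 0.00244), stomach (+1.65, adjusted p = 0.0189) and uterus (+1.46, adjusted p = 0.0173). It was not called in lung (0.01, adjusted p = 0.999), intestine (0.53, adjusted p = 1) or liver, where both means, 3.17 and 2.94, lay below the array medians. Prom1 was therefore called higher in the positive cells of 3 of the 6 tissues. Of the tissue and tumour identity genes, Nkx2-1 in lung, Esr1 and Hoxa13 in uterus, Pax5 in the lymphomas and Atp4a in the gastric tumours were not above the array median. Nor was Hoxa11 in uterine adenocarcinoma (mean 3.61).

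Collagen signal was lowest in intestine and highest in uterus. In the intestinal groups, 9 members stood above the array median in either fraction, against 27 of 42 in Prom1-negative uterus and in Prom1-negative prostate, 26 in Prom1-positive prostate and in uterine adenocarcinoma, and 16 in B-cell lymphoma. The highest group mean of 19 members fell in Prom1-negative uterus. Col3a1, Col6a2, Col16a1, Col18a1 and Col27a1 were above the array median in all 19 groups, 29 members in some, and 8 in none. Those 8 were Col2a1 (the cartilage fibril chain), Col9a2, Col10a1, Col12a1, Col19a1, Col22a1, Col26a1 and Col6a5, and for them the group means spanned between 0.31 and 1.12. Levels are compared here only within a gene, since probe sets differ in brightness.

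The type I and type III chains form the bulk fibrils of skin, uterus and stroma. Col1a1, the major type I chain, had means of 11.22 ± 0.41 (SD, n = 3) in Prom1-negative and 9.60 ± 0.66 (n = 4) in Prom1-positive uterus, 8.10 ± 0.70 (n = 5) in Prom1-negative and 4.87 ± 1.76 (n = 3) in Prom1-positive prostate, and 7.57 ± 0.43 (n = 7) and 6.36 ± 1.01 (n = 3) in lung. In liver, stomach and intestine every one of its 6 group means lay between 3.09 and 3.84. Among tumours its means were 9.84 ± 1.45 (n = 9) in uterine, 8.53 ± 2.07 (n = 10) in prostatic and 8.44 ± 0.63 (n = 11) in gastric adenocarcinoma, 8 ± 1.30 (n = 6) in skin carcinoma, 5.47 ± 0.83 (n = 3) in lymphoma, 5.09 ± 1.25 (n = 13) in hepatocellular carcinoma and 4.89 ± 0.74 (n = 14) in bronchial adenoma. The first 4 tumour means lie within 1 SD of their neighbours in that order, and so do the last 3, while skin carcinoma and lymphoma are further apart than either SD. Among normal tissues Col1a1 set the uterus apart, its lowest uterine sample at 8.96 exceeding the highest sample of any other tissue at 8.56.

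Col3a1, the type III chain, followed the same order at the top, with 13.36 ± 0.05 (n = 3) and 12.62 ± 0.21 (n = 4) in Prom1-negative and Prom1-positive uterus and 12.42 ± 0.54 (n = 5) and 9.06 ± 1.43 (n = 3) in prostate. Lung gave 11.85 ± 0.32 (n = 7) and 11.10 ± 0.80 (n = 3), liver 8.67 ± 0.91 (n = 7) and 6.03 ± 1 (n = 4), stomach 7 ± 2.1 (n = 4) and 6.35 ± 1.22 (n = 3), and intestine 4.68 ± 1.46 (n = 5) and 4.61 ± 0.59 (n = 3), negative cells first. Its tumour means were 12.70 ± 0.74 in uterine, 12.29 ± 0.51 in gastric and 12.06 ± 1.31 in prostatic adenocarcinoma, 11.58 ± 0.54 in skin carcinoma, 9.34 ± 1.28 in hepatocellular carcinoma, 9.31 ± 1.35 in bronchial adenoma and 8.70 ± 0.94 in lymphoma. Col1a2, the second type I chain, was read by a single dim probe set that passed the array median in only 3 groups, Prom1-negative uterus (6.77 ± 0.44, n = 3), Prom1-positive uterus (4.31 ± 0.75, n = 4) and uterine adenocarcinoma (4.75 ± 1.58, n = 9). Elsewhere its group means lay between 2.36 and 3.67, so it says little about type I collagen outside the uterus.

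**Figure D1:**
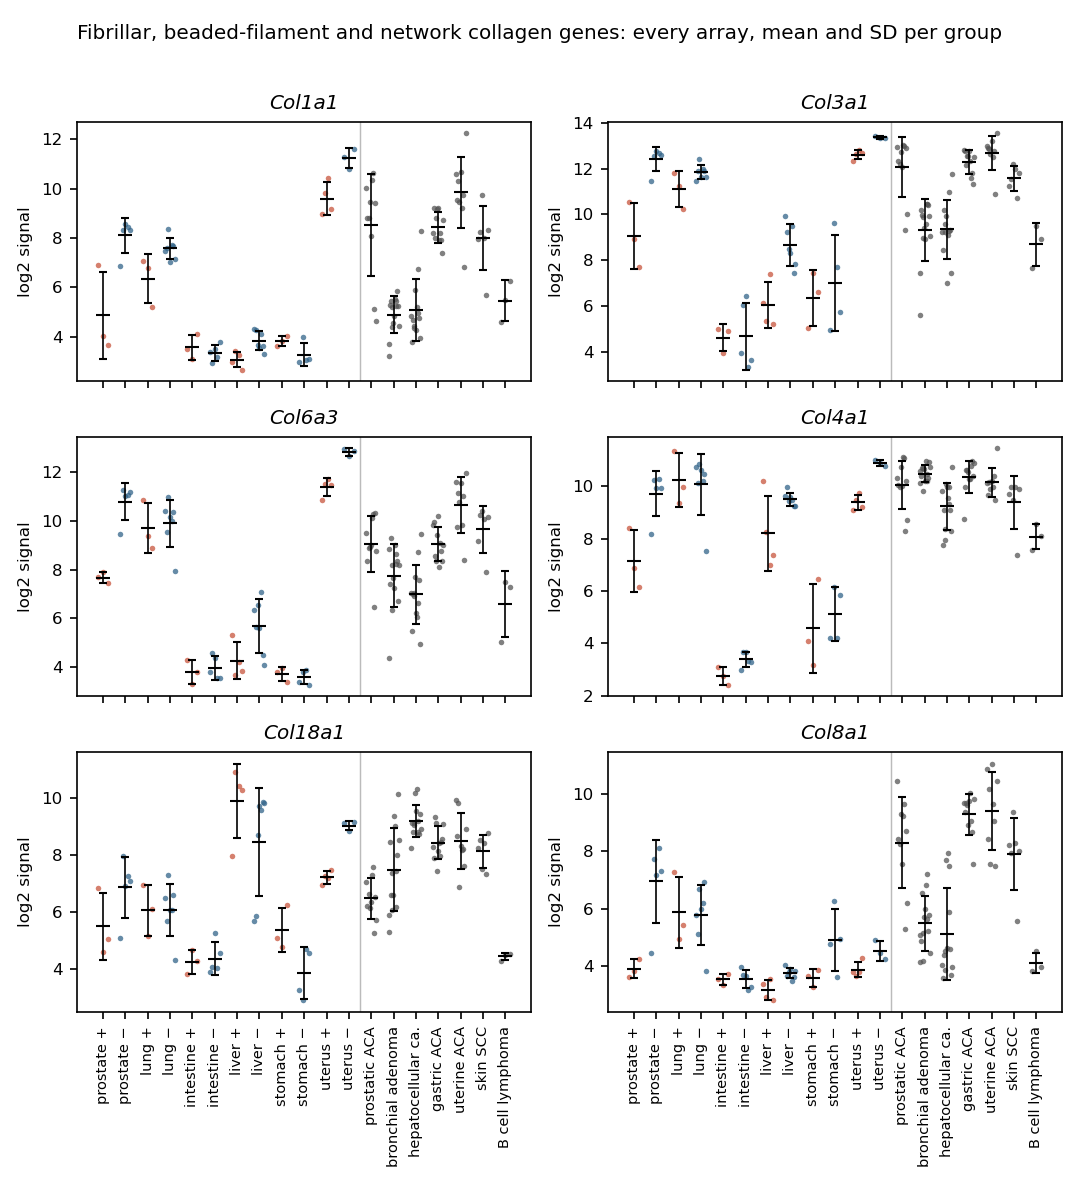
Log2 signal (vertical axes) of Col1a1, Col3a1, Col6a3, Col4a1, Col18a1 and Col8a1 in every array of the 19 groups (horizontal axis), with red points for Prom1-positive cells (+), blue for Prom1-negative cells (−) and grey for tumours (ACA, adenocarcinoma; SCC, squamous cell carcinoma; ca., carcinoma). Black bars are means ± SD; in prostate, liver and uterus the blue points of Col3a1 lie above the red ones, the intestinal points are near the bottom for Col1a1, Col3a1, Col6a3, Col4a1 and Col18a1, and Col8a1 is high in 3 kinds of adenocarcinoma while low in the uterus.

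Type VI collagen, which forms beaded filaments around cells, was also highest in uterus. Col6a3 had means of 12.82 ± 0.15 (n = 3) and 11.40 ± 0.38 (n = 4) in negative and positive uterus, 10.79 ± 0.75 (n = 5) and 7.67 ± 0.22 (n = 3) in prostate, 9.90 ± 0.97 (n = 7) and 9.71 ± 1.01 (n = 3) in lung and 5.68 ± 1.10 (n = 7) and 4.26 ± 0.75 (n = 4) in liver. Stomach and intestine were between 3.58 and 3.96. Its tumour means ran from 10.66 ± 1.14 in uterine adenocarcinoma through 9.66 ± 0.96 in skin carcinoma, 9.06 ± 1.15 in prostatic and 9.05 ± 0.71 in gastric adenocarcinoma to 7.75 ± 1.30 in bronchial adenoma, 6.98 ± 1.23 in hepatocellular carcinoma and 6.59 ± 1.37 in lymphoma. In that order each tumour mean was within 1 SD of its neighbour apart from the step from gastric adenocarcinoma to bronchial adenoma, which matched 1 SD of the latter. Col6a1 behaved likewise, at 11.86 ± 0.11 and 10.34 ± 0.38 in negative and positive uterus, 9.71 ± 0.54 and 6.50 ± 1.69 in prostate, 8.64 ± 0.82 and 8.09 ± 0.89 in lung, 4.71 ± 0.66 and 3.77 ± 0.48 in liver and between 3.01 and 4.45 in stomach and intestine. Its tumour means were 9.31 ± 1.29 in uterine, 8.49 ± 0.64 in gastric and 7.92 ± 0.96 in prostatic adenocarcinoma, 8.13 ± 0.97 in skin carcinoma, 7.75 ± 1.31 in bronchial adenoma, 6.01 ± 0.80 in lymphoma and 5.40 ± 1.24 in hepatocellular carcinoma.

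Col6a4, a further chain of type VI, had its 2 highest group means in the normal uterus. Its 4 Prom1-positive uterine samples read 8.59, 8.98, 9.16 and 9.88 and its 3 negative ones 11.17, 10.66 and 11.47. No other normal sample exceeded 5.02, a Prom1-negative prostate sample, so the uterus did not overlap with any of the other 5 tissues. In uterine adenocarcinoma it ran from 2.87 over a median of 3.06 to 5.63. The related Col6a5 was not above the array median in any group.

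The basement membrane chains Col4a1 and Col4a2 were high in every normal tissue except stomach and intestine. Col4a1 had means of 10.90 ± 0.11 (n = 3) and 9.39 ± 0.29 (n = 4) in negative and positive uterus, 10.08 ± 1.16 (n = 7) and 10.24 ± 1.03 (n = 3) in lung, 9.72 ± 0.87 (n = 5) and 7.15 ± 1.17 (n = 3) in prostate, and 9.52 ± 0.25 (n = 7) and 8.21 ± 1.44 (n = 4) in liver. Its means were 5.11 ± 1.04 (n = 4) and 4.58 ± 1.71 (n = 3) for stomach and 3.40 ± 0.29 (n = 5) and 2.77 ± 0.34 (n = 3) for intestine. Its tumour means stood closer together, at 10.49 ± 0.33 in bronchial adenoma, 10.37 ± 0.61 in gastric, 10.16 ± 0.56 in uterine and 10.05 ± 0.92 in prostatic adenocarcinoma, 9.40 ± 1.01 in skin carcinoma, 9.23 ± 0.91 in hepatocellular carcinoma and 8.08 ± 0.48 in lymphoma. Col4a2 went with it. Its means were 9.98 and 8.21 in negative and positive uterus, 9.25 and 9.44 in lung, 8.70 and 5.72 in prostate, 3.78 and 3.28 in intestine, 8.82 and 7.77 in liver, and for stomach 4.50 and 4.27. In tumours they were 10.02 in bronchial adenoma, 9.74 in gastric, 9.54 in uterine and 9.44 in prostatic adenocarcinoma, 8.69 in skin carcinoma, 8.38 in hepatocellular carcinoma and 7.43 in lymphoma. Over the 19 group means the correlation of Col4a1 with Col4a2 was 0.99.

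The minor type IV chains, which replace the ordinary network in kidney, lung and some other epithelia, were each high in a few groups. Col4a3 and Col4a4, also a divergent pair, had their highest means in bronchial adenoma, where Col4a3 ran from 3.84 over 6.92 to 8.70 and Col4a4 from 5.50 over 8.43 to 8.94. Prom1-negative uterus came next for both, with 7.04, 6.45 and 5.18 for Col4a3 and 7.65, 7.36 and 6.89 for Col4a4. In gastric adenocarcinoma, Col4a3 lay between 2.44 and 2.77. Col4a6 was high in normal prostate, at 9.53, 8.85 and 8.56 in positive and 8.76, 8.44, 8.51, 8.40 and 8.37 in negative cells. The highest sample of any other normal tissue was a Prom1-negative uterine one at 7.70, so prostate stood apart from the other 5 tissues without overlap. Col4a5 was broader, with means of 9.82 and 7.69 in negative and positive uterus, 9.21 and 7.34 in prostate and 7.52 and 6.24 in lung, and of 7.54 in gastric, 7.50 in bronchial and 7.30 in uterine tumours, but 2.92 in lymphoma.

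**Figure D2:**
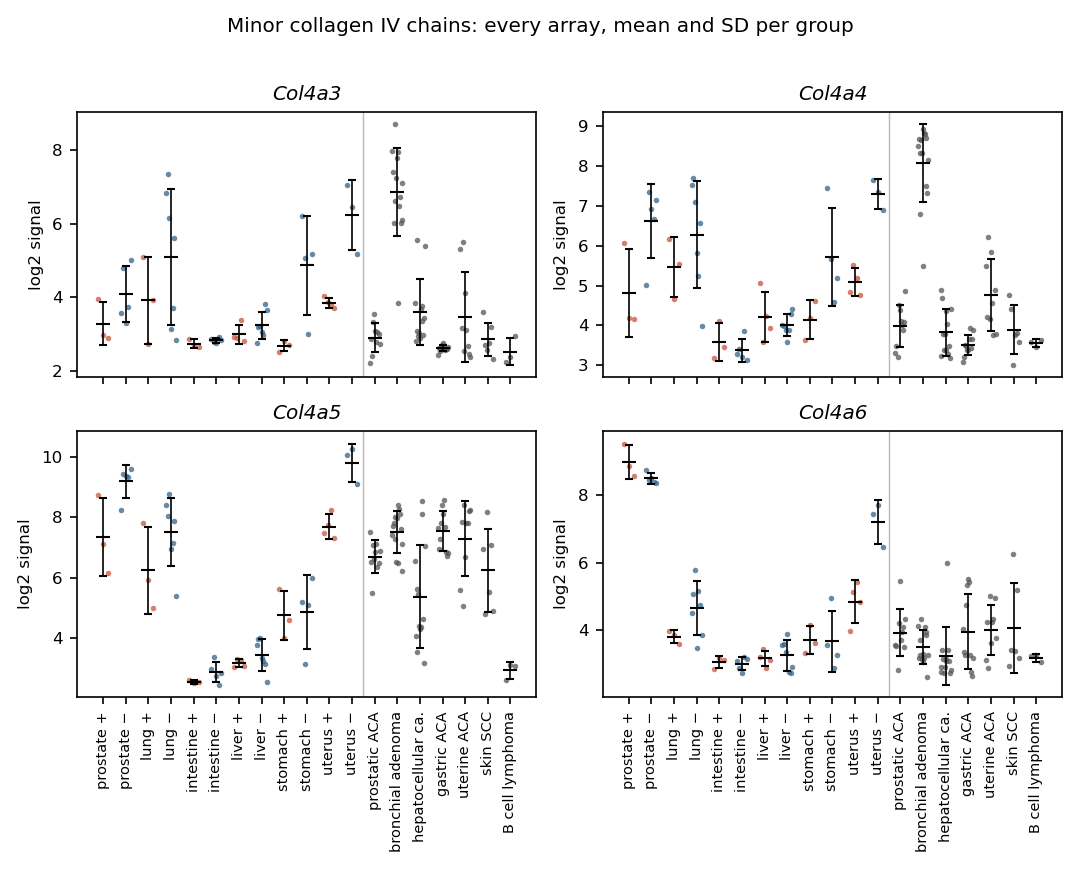
Log2 signal of the minor type IV chains Col4a3, Col4a4, Col4a5 and Col4a6 in every array (points; red Prom1-positive, blue Prom1-negative, grey tumours; black bars mean ± SD) by group (horizontal axis; + and − give Prom1 status; ACA, adenocarcinoma; SCC, squamous cell carcinoma; ca., carcinoma). Col4a3 and Col4a4 are highest in bronchial adenoma, and Col4a6 is at or above 8.37 in all normal prostate samples but between 2.81 and 5.46 in prostatic adenocarcinoma.

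Type XVIII collagen, a basement membrane collagen with heparan sulphate chains whose end fragment is endostatin, was read by Col18a1. Liver held its highest group mean, 9.88 ± 1.31 in Prom1-positive cells (7.96, 10.89, 10.41 and 10.28), with 8.45 ± 1.88 (n = 7) in negative liver cells and 9.18 ± 0.57 (n = 13) in hepatocellular carcinoma. The other sorted means were 9.03 and 7.22 in negative and positive uterus, 6.87 and 5.50 in prostate, 3.87 and 5.37 in stomach, 6.07 and 6.06 in lung and 4.37 and 4.26 in intestine. Among tumours, lymphoma was low in all 3 samples (4.30, 4.51 and 4.53), and the other means were 8.50 in uterine, 8.43 in gastric and 6.48 in prostatic adenocarcinoma, 8.13 in skin carcinoma and 7.49 in bronchial adenoma.

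Col7a1, the anchoring fibril chain, and Col17a1, a membrane collagen of the hemidesmosome that ties basal keratinocytes to their basement membrane, were read high in the squamous tumours and in uterine adenocarcinoma. In skin carcinoma Col17a1 ran from 9.66 over 10.17 to 10.95, and in uterine adenocarcinoma from 4.51 over 9.89 to 11.15, the widest spread of any group (SD 2.56). Prostatic adenocarcinoma held 5.40 ± 0.86, and the other 4 tumour types had means between 2.72 and 2.89. In the sorted groups its means lay between 2.82 in intestine and 4.69 in Prom1-negative prostate, where a single sample reached 7.03. Col7a1 had means of 7.64 ± 0.69 in skin carcinoma, 6.94 ± 0.92 in uterine, 5.32 ± 0.90 in gastric and 4.76 ± 0.58 in prostatic adenocarcinoma, and between 3.38 and 3.88 in the other 3 tumour types. Its sorted means were 5.89 and 4.76 in negative and positive uterus, 4.68 and 5.73 in prostate and between 3.53 and 4.28 in the remaining 8 groups. The basal epithelial marker list (8 genes measured) had its highest mean levels in the same tumours, 10.06 in skin carcinoma (samples 9.47 to 10.48) and 9.07 in uterine adenocarcinoma (6.57 to 10.38).

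**Figure D3:**
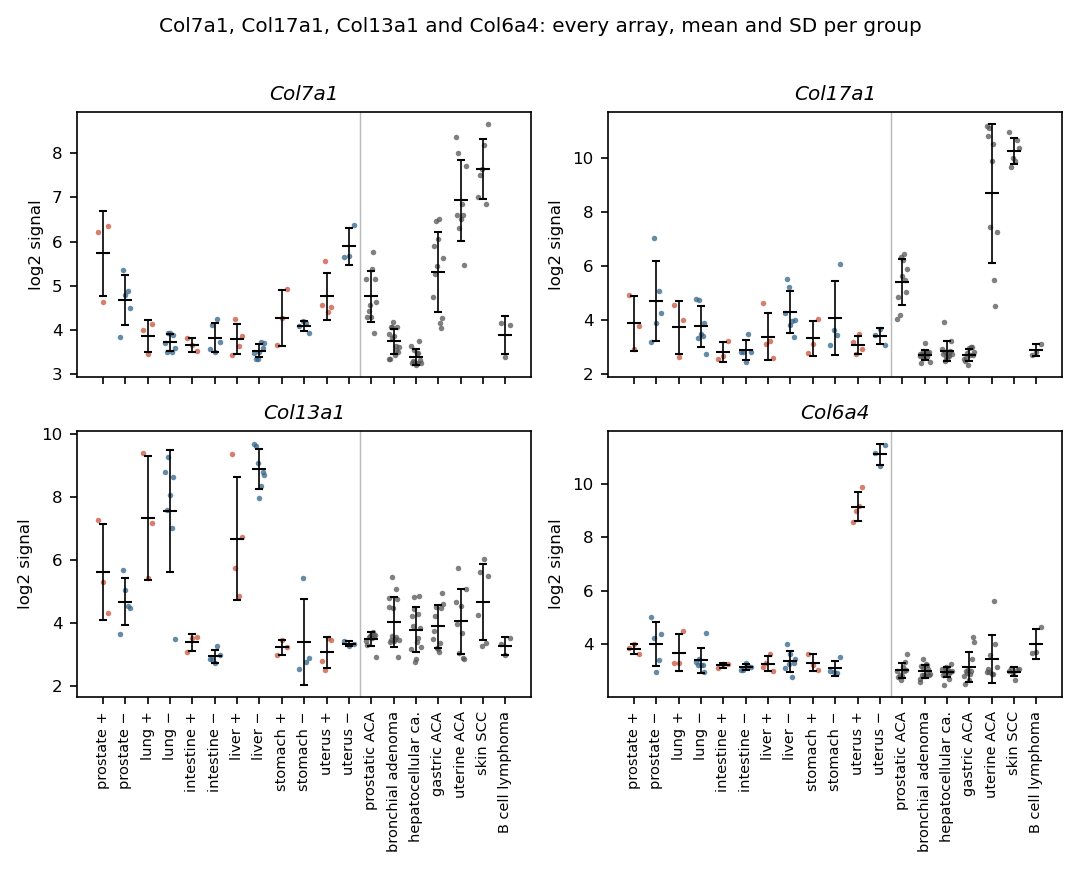
Log2 signal of Col7a1, Col17a1, Col13a1 and Col6a4 in every array of the 19 groups (points; red Prom1-positive, blue Prom1-negative, grey tumours; black bars mean ± SD; + and − give Prom1 status; ACA, adenocarcinoma; SCC, squamous cell carcinoma; ca., carcinoma). Col17a1 is at or above 9.66 in every skin carcinoma and spread from 4.51 to 11.15 in uterine adenocarcinoma, Col13a1 is high in sorted liver and lung cells and low in the tumours of those organs, and Col6a4 is high in sorted uterine cells alone.

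The comparison of Prom1-positive with Prom1-negative cells asks whether the cells marked as progenitors carry a different set of transcripts. In positive cells 16 collagen genes were lower in prostate, 20 in uterus and 6 in liver, while in lung and intestine 0 were called. A member entered a test only if it was above the array median in at least 3 arrays of the fit, which 35 of the 42 were. Members that passed through 1 high group alone had to differ somewhere, so the counts are descriptions. Members called in prostate numbered 17 of 35, 16 lower and 1 higher, against 9.19% of all 14081 genes called in that comparison (5.98% lower, 3.21% higher). The median difference of the members was -0.92, against 0.10 over all genes.

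In prostate, the largest differences were in Col14a1, a collagen that coats fibrils, and in the type V chains Col5a2 and Col5a1, which regulate fibril thickness. Col14a1 read 5.34, 3.76 and 3.95 in the positive samples and 8.16, 9.18, 9.56, 9.69 and 9.18 in the negative ones, so that the groups did not overlap (difference -4.81, SE 0.58, adjusted p = 3.25e-08). Col5a2 fell by 3.96 (SE 0.44, adjusted p = 3.48e-09) and Col5a1 by 3.55 (SE 0.56, adjusted p = 8.14e-06), neither with overlap. For these 3 genes every positive sample lay below every negative one, and the bulk fibril chain of type III did the same. Col3a1 was 10.55, 8.94 and 7.69 in positive cells and 11.48, 12.56, 12.79, 12.69 and 12.61 in negative cells (-3.36, SE 0.71, adjusted p = 0.000877). Col1a1 was 6.89, 4.05 and 3.68 against 6.86, 8.34, 8.56, 8.43 and 8.33 (-3.23, SE 0.45, adjusted p = 8.76e-07). Positive replicate 1 lay just above negative replicate 1, the only overlap of these groups for Col1a1. Col6a3 was 7.68, 7.88 and 7.45 against 9.46, 11.25, 11.02, 11.05 and 11.18 (-3.12, SE 0.52, adjusted p = 2.32e-05).

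By class, 5 of the 10 fibrillar members tested, 4 of 6 type IV chains, 3 of 4 beaded filament chains (Col6a1, Col6a2 and Col6a3), both network-forming type VIII chains Col8a1 and Col8a2, and 2 of 6 fibril-associated members were lower in positive prostate cells. For Col4a1 the values were 8.43, 6.88 and 6.14 against 8.20, 10.23, 9.95, 10.29 and 9.93, with overlap at negative replicate 1 (-2.57, SE 0.64, adjusted p = 0.00517). Without positive replicate 3, Col4a1 (-2.07, adjusted p = 0.0782), Col4a4 (-1.49, adjusted p = 0.195) and Col4a5 (-1.28, adjusted p = 0.268) lost their calls, leaving Col4a2 of the type IV chains. Col4a4 and Col4a5 each lost theirs in 6 of the 8 refits that left out a prostate sample. Col7a1 was the 1 member higher in the positive cells, at 6.21, 4.62 and 6.36 against 3.84, 5.36, 4.80, 4.89 and 4.50 (+1.05, SE 0.31, adjusted p = 0.0199). That call overlapped between groups and was lost on leaving out negative replicate 1 (0.84, adjusted p = 0.0666), positive replicate 1 (adjusted p = 0.17) or positive replicate 3 (adjusted p = 0.218). The fibroblast marker list, which holds no collagen, went with the members: 10 of 14 of its genes tested were lower in positive prostate cells and 0 higher, and its mean level was 4.54 to 6.21 in positive and 6.79 to 8.12 in negative samples. Of 9 endothelial markers 5 were lower and 0 higher (4.60 to 4.83 against 5.42 to 7.79), and of 8 mesothelial markers 3 were lower and 0 higher (4.65 to 4.93 against 5.31 to 6.70). Their part in the collagen differences was not tested.

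In uterus, 20 of 35 members were lower in positive cells and 0 higher, against 10.9% of all genes called (5.64% lower, 5.31% higher), with a member median of -1.78 against 0.03 over all genes. Among these 20 calls, that of Col24a1 came with overlapping groups. Overlap was not counted over all genes, so this describes the members and does not set them apart. Col11a1, a minor fibril chain, read 3.07, 4.26, 4.57 and 3.44 in positive and 7.18, 7.37 and 5.38 in negative cells (-2.81, SE 0.33, adjusted p = 4.34e-08). Col8a2 read 3.59, 3.65, 3.18 and 3.45 against 6.65, 6.36 and 5.70 (-2.77, SE 0.44, adjusted p = 1.44e-05), and Col1a2 read 3.33, 4.40, 5.15 and 4.35 against 6.99, 7.06 and 6.27 (-2.47, SE 0.36, adjusted p = 3.41e-06). By class these were 8 of 10 fibrillar members, 4 of 6 type IV chains (Col4a3, Col4a4, Col4a5 and Col4a6, but not Col4a1 or Col4a2), 2 of 4 beaded filament chains, 2 of 6 fibril-associated members, and Col7a1, Col8a2, Col15a1 and Col23a1.

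Col1a1 was 8.96, 9.80, 10.43 and 9.19 against 11.29, 10.78 and 11.59 (-1.62, SE 0.47, adjusted p = 0.0172), and Col6a1 fell by 1.52 (SE 0.52, adjusted p = 0.047), a call lost on leaving out any single uterine sample. Col7a1, higher in positive prostate cells, was lower in positive uterine cells, at 4.56, 5.55, 4.41 and 4.51 against 5.64, 5.67 and 6.37 (-1.14, SE 0.32, adjusted p = 0.0129), and its difference between tissues was called (adjusted p = 0.00748). The count of 20 rested on few samples. It fell to 11 without negative replicate 1 and to 13 without positive replicate 1, and Col1a1 lost its call in both (adjusted p = 0.0741 and 0.0793). Without negative replicate 1, Col4a3 (adjusted p = 0.148), Col4a4 (adjusted p = 0.0674) and Col4a5 (adjusted p = 0.0763) lost theirs as well, and Col7a1 did without negative replicate 3 (-0.90, adjusted p = 0.109). Again 10 of 14 fibroblast markers were lower and 0 higher in positive cells, with list means of 6.21 to 7.03 against 7.98 to 8.50, whereas 0 of 9 endothelial markers were called. Of 8 mesothelial markers 4 were lower and 0 higher, with list means of 4.55 to 4.84 against 6.11 to 6.24. Of 8 leukocyte markers 2 were higher and 0 lower, with list means of 9.15 to 9.43 in positive and 8 to 8.15 in negative cells. The excess of 3′ over 5′ signal of Actb was 1.87, 2.41 and 0.34 in the negative uterine samples and 0.44 to 1.02 in the positive ones. The part of these cells and of RNA quality in the uterine differences was not tested.

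In liver, 8 of 35 members were called, 6 lower and 2 higher in positive cells, near the 20.7% of all genes called there (16.5% lower, 4.2% higher). Col3a1 was 6.14, 5.33, 7.40 and 5.23 in positive cells, and from 7.42 over 8.48 to 9.94 in the 7 negative samples, without overlap (-2.64, SE 0.61, adjusted p = 0.00144). Col14a1 fell by 2.05 (SE 0.50, adjusted p = 0.00229). Col13a1, a membrane collagen at sites of cell adhesion, was 9.38, 5.75, 4.85 and 6.74 against 7.98 to 9.70 (-2.22, SE 0.73, adjusted p = 0.0245), with positive replicate 2 inside the negative range. On the other side, Col27a1, a fibrillar chain best known from cartilage, was 6.62, 8.90, 9.14 and 8.79 against 6.12, 6.38 and 7.01 as the lowest, median and highest negative samples (+1.90, SE 0.40, adjusted p = 0.000556). Col9a3 was higher by 0.76 (SE 0.21, adjusted p = 0.00747). That call was lost with the mean of its probe sets (0.42, limma adjusted p = 0.0533) and in 1 refit without a sample. The second probe set of Col9a3 read 2.88 in positive and 2.79 in negative liver cells, below the array medians. Positive replicate 2 was the sample nearest the negative ones for Col13a1 and Col27a1, and without it 12 members were called, while without positive replicate 4 or 5 only 4 were and without positive replicate 3 only 5. That same sample had the highest endothelial marker mean of the positive liver group, 10.29, where the lowest was 5.97 and the negative samples ran from 9.12 to 10.13. Over the fit, 7 of 9 endothelial, 3 of 14 fibroblast and 7 of 8 leukocyte markers were lower and 0 higher, and their part was not tested.

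In stomach, 2 of 35 members were called, both higher in positive cells, against 3.17% of all genes (2.29% higher, 0.888% lower). Col9a3, a chain of the fibril-associated type IX collagen, read 6.54, 6.68 and 7.28 in positive and 4.38, 4.24, 4.79 and 4.65 in negative cells, with a gap between the groups (+2.32, SE 0.26, adjusted p = 5.13e-08). It was not called when the stomach samples were fitted alone (adjusted p = 0.162). Of 8 cartilage markers 1 was above the array median in either stomach fraction. Col11a2, at 3.98, 4.13 and 3.38 against 3.03, 2.70, 3.20 and 2.69, was near the array median (+0.93, SE 0.23, adjusted p = 0.0133) and lost its call without positive replicate 1 or 2 (adjusted p = 0.0689 and 0.134). In lung 0 members were called by limma (1.51% of all genes, 0.391% higher and 1.11% lower; 5 members had an unadjusted p under 0.05), with 1 called when positive replicate 1 or 2 was left out. In intestine 0 members were called (0.199% of all genes; 0 members had an unadjusted p under 0.05). In lung and intestine Prom1 was not called either.

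Over the mean of the 6 tissues, 19 members were lower and 3 higher of 35 in positive cells, against 13.6% of all genes called (8.56% lower, 5.05% higher), and the member median was -0.55 (0.02 over all genes). Col14a1 (-1.60, SE 0.23, adjusted p = 2.64e-06), Col5a1 (-1.38, SE 0.22, adjusted p = 1.93e-05) and Col3a1 (-1.37, SE 0.29, adjusted p = 0.000713) fell most, and Col9a3 rose most (+0.57, SE 0.10, adjusted p = 5.12e-05). Col20a1 (+0.29, adjusted p = 0.0499) and Col11a2 (+0.26, adjusted p = 0.0453) only just passed, and leaving out a single sample ended the call of Col20a1 in 38 and of Col11a2 in 32 of 51 refits. All 6 type IV chains were lower in this mean, but the call of Col4a6 was lost in 11 of the same 51 refits and with the mean of all its probe sets (-0.33, adjusted p = 0.0548). The tissue by sort interaction was called for 21 of 35 members (21.2% of all genes), so the differences were unequal between tissues for those genes. It was not called for Col4a1, Col4a2, Col4a3 or Col4a5, nor for Col11a2, Col13a1, Col15a1, Col17a1, Col18a1, Col20a1, Col22a1, Col23a1, Col25a1 or Col9a1. The levels of 33 of 35 members differed between the 6 normal tissues, where 90.1% of all genes did, Col22a1 and Col9a1 being the exceptions.

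**Figure D4:**
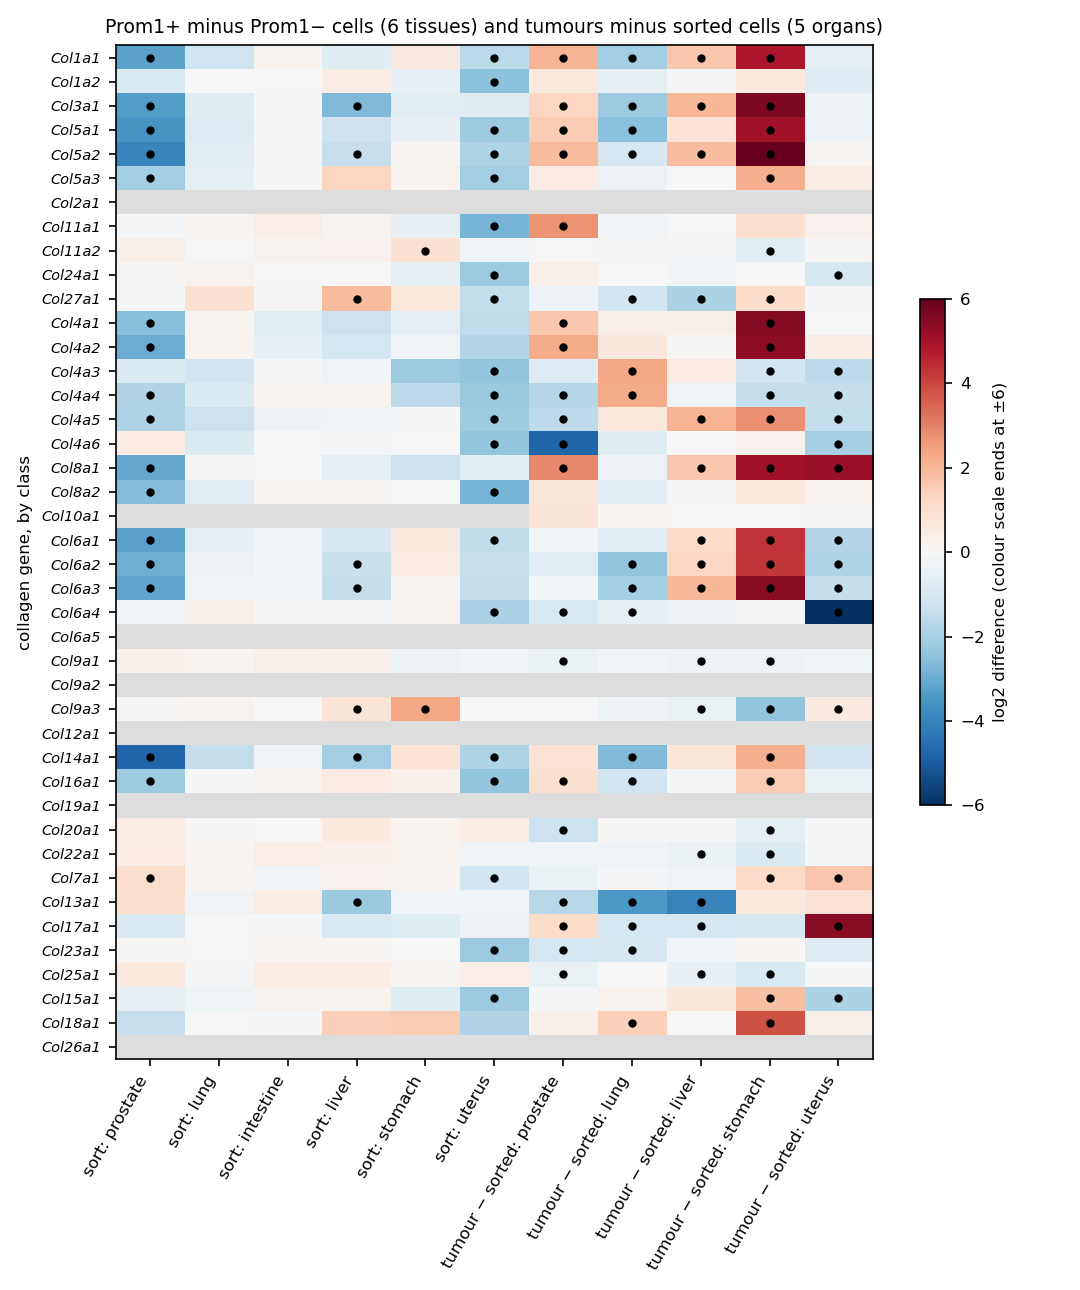
Heat map of log2 differences for the 42 collagen genes (rows, grouped by class) in the 6 Prom1-positive minus Prom1-negative comparisons and the 5 tumour minus sorted normal comparisons (columns); red is higher in positive cells or tumours, blue lower, the colour scale ends at -6 and 6, dots mark an adjusted p under 0.05 and grey cells were not tested. The prostate and uterus sort columns are mostly blue, the lung and intestine sort columns carry 0 dots, and the stomach tumour column is mostly red.

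The comparison of tumours with the normal cells of the same organ was made for 5 organs, the normal level being the mean of the positive and negative group means. Tumours were frozen whole and normal cells dissociated and sorted, so tumour state and handling cannot be told apart. These comparisons also use the same sorted samples as the sort comparisons, and where the sorted groups differ the choice of the normal level matters. Tests could be made for 36 members. Their tumour differences depended on the organ in 32 of the 36 (77.9% of all 14663 genes), all but Col8a2, Col9a1, Col10a1 and Col23a1, and 16 members were called higher in one organ and lower in another.

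The stomach showed the largest changes. Of 36 members, 18 were higher and 8 lower in gastric adenocarcinoma, against 58.1% of all genes called in either direction (35% higher, 23% lower), and the member median was 1.07 (0.11 over all genes). Col5a2 was 3.77, 3.19 and 2.81 in positive and 2.94, 2.84, 3.57 and 3.19 in negative stomach cells, but ran from 9.58 over 10.45 to 10.95 in the 11 tumours (+7.2, SE 0.45, adjusted p = 5.48e-27). Col3a1 was 5.02, 7.44 and 6.6 in positive cells, 4.94, 7.70, 9.62 and 5.72 in negative cells and 11.33 to 12.82 in tumours, median 12.50 (+5.61, SE 0.51, adjusted p = 2.4e-17). Col4a1 was 4.09, 3.17 and 6.48 in positive cells, 4.22, 4.22, 6.14 and 5.85 in negative cells and 8.76 to 10.98 in tumours, median 10.54 (+5.53, SE 0.39, adjusted p = 9.19e-24). For these genes every tumour lay above every sorted stomach sample. Col6a3 (+5.40), Col4a2 (+5.36), Col5a1 (+5.08), Col8a1 (+5.03), Col1a1 (+4.87), Col6a1 (+4.32), Col6a2 (+4.22) and Col18a1 (+3.80) were likewise separated.

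The falls in gastric adenocarcinoma were Col9a3, which ran from 2.99 over 3.26 to 3.99 in tumours, below every stomach sample (-2.38, SE 0.17, adjusted p = 1.41e-22), the minor type IV chains Col4a4 (-1.43, SE 0.36, adjusted p = 0.000377) and Col4a3 (-1.16, SE 0.43, adjusted p = 0.0154), and 5 members near or below the array median (Col25a1, Col22a1, Col11a2, Col20a1 and Col9a1). In the sorted stomach samples few stromal genes were above the array median, 6 of 15 fibroblast markers in either fraction, and the upper quartile of 3 of the 7 arrays was under 6. In the tumours 7 fibroblast, 7 smooth muscle and 6 endothelial markers were higher, of 15, 8 and 9, with 1, 0 and 0 lower, and all 4 stomach identity genes were lower (median -5.46). Their part in the collagen rises was not tested. With the upper quartile of each array as a covariate the count became 16 higher and 3 lower, and the split over all genes moved from 35% higher and 23% lower to 16.5% and 26.2%. Col4a3 was not called with that covariate (-1.08, adjusted p = 0.115), while Col5a2, Col3a1 and Col4a1 were. Against positive stomach cells alone neither Col4a4 (-0.64, adjusted p = 0.286) nor Col4a3 (-0.07, adjusted p = 0.937) was called.

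In prostate, 10 members were higher and 9 lower of 36 in adenocarcinoma, against 36.7% of all genes (20.9% higher, 15.8% lower). Col4a6 fell most. It ran from 2.81 over 3.82 to 5.46 in the 10 tumours, below all 8 normal samples, of which the lowest was 8.37 (-4.82, SE 0.35, adjusted p = 2.34e-22). Its head-to-head partner Col4a5 fell by 1.58, Col4a4 by 1.73 (SE 0.36, adjusted p = 4.23e-05) and Col13a1 by 1.67 (SE 0.46, adjusted p = 0.00255). Against positive cells alone Col4a5 (-0.65, adjusted p = 0.511) and Col4a4 (-0.83, adjusted p = 0.217) were not called, and against negative cells alone Col13a1 was not (-1.19, adjusted p = 0.0674). Against this, Col8a1 rose by 2.88 (SE 0.52, adjusted p = 3.54e-06), Col11a1 by 2.68 (SE 0.48, adjusted p = 3.27e-06) and Col4a2 by 2.23 (SE 0.40, adjusted p = 3.38e-06). Col11a1 was between 2.56 and 3.17 in all normal prostate samples and ran from 3.08 over 5.93 to 7.43 in tumours.

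Most of the rises in prostate also depended on the sorted group used as normal. Col1a1 was 2.04 higher than the mean of both groups (SE 0.51, adjusted p = 0.000698) but not called against the negative cells alone (0.42, adjusted p = 0.629). Col3a1 lost its call also without negative replicate 1, positive replicate 2 or positive replicate 3 (adjusted p = 0.0623, 0.0605 and 0.164). The same dependence on the normal group held for Col3a1 (+1.31, then -0.37, adjusted p = 0.682), Col5a1 (+1.54, then -0.24, adjusted p = 0.787), Col5a2 (+1.88, then -0.11, adjusted p = 0.913), Col4a1 (+1.62, then 0.33, adjusted p = 0.614), Col4a2 (then 0.74, adjusted p = 0.212) and Col8a1 (then 1.35, adjusted p = 0.0638). Of the markers, 7 of 8 smooth muscle genes and 6 of 9 epithelial genes rose in these tumours, 2 of 15 fibroblast genes rose and 7 fell, and all 4 prostate identity genes fell (median -6.38). Their part in the collagen changes was not tested.

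In lung, 3 members were higher and 13 lower of 36 in bronchial adenoma, against 43.1% of all genes (23.4% higher, 19.7% lower). Col13a1 ran from 3.50 over 8.06 to 9.27 in negative lung cells and was 9.39, 5.44 and 7.18 in positive cells, but 2.90 to 5.47 in tumours, median 3.57 (-3.43, SE 0.42, adjusted p = 2.1e-11). Negative replicate 7 and the positive sample at 5.44 lay within the tumour range. Col14a1 fell by 2.65 (SE 0.41, adjusted p = 5.25e-08) and Col5a1 by 2.50 (SE 0.42, adjusted p = 3.96e-07), the latter without overlap. Col1a1 (-2.08), Col3a1 (-2.17) and Col6a3 (-2.06) fell too, although Col1a1 was not called against the positive cells alone (-1.47, adjusted p = 0.0858). The rises were confined among the 36 to Col4a3 (+2.34, SE 0.38, adjusted p = 1.85e-07), Col4a4 (+2.21, SE 0.32, adjusted p = 7.34e-09) and Col18a1 (+1.42, SE 0.42, adjusted p = 0.0036). In sorted lung Col4a3 was 5.10, 2.73 and 3.93 in positive cells and from 2.83 over 5.61 to 7.36 in negative cells, so the tumours, at 3.84 to 8.70, overlapped with them. Of the marker genes 11 of 15 fibroblast, 6 of 8 smooth muscle and 8 of 9 endothelial genes fell with 0 rising, and 7 of 9 epithelial genes rose. Their part was not tested.

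In liver, 8 members were higher and 7 lower of 36 in hepatocellular carcinoma, against 47.2% of all genes (29.2% higher, 18% lower). Col13a1 fell from 7.98 to 9.70 in negative cells and 9.38, 5.75, 4.85 and 6.74 in positive cells to 2.74 to 4.84 in the 13 tumours, median 3.85, the highest tumour lying just under the lowest normal sample (-4.00, SE 0.40, adjusted p = 1.75e-14). Col27a1 fell by 1.89 (SE 0.32, adjusted p = 4.36e-07) and Col17a1 by 1 (adjusted p = 0.0317), the latter from means near the array median. The Col17a1 call was lost without positive replicate 2 (-0.80, adjusted p = 0.117), without negative replicate 2 or 3, without the arrays of low upper quartile (-0.77, adjusted p = 0.193) and against positive cells alone (-0.54, adjusted p = 0.467). Col4a5 rose by 2.08 (SE 0.41, adjusted p = 1.36e-05) from between 2.51 and 3.99 in sorted liver to between 3.17 and 8.55 in tumours, median 4.63, which is the widest spread of that gene in any group. Col6a3 rose by 2.01 (SE 0.41, adjusted p = 2.55e-05) and Col3a1 by 2 (SE 0.44, adjusted p = 7.97e-05). Against negative cells alone Col3a1 was not called (0.67, adjusted p = 0.287). All 9 endothelial markers fell, 4 of 8 smooth muscle markers rose, and 1 of 15 fibroblast markers rose and 3 fell. Their part was not tested.

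In uterus, 4 members were higher and 10 lower of 36 in adenocarcinoma, against 28.8% of all genes (16.4% higher, 12.4% lower). The loss of Col6a4, whose values are given above, was the largest change of any collagen gene in the 5 organs except the rise of Col5a2 in stomach (-6.67, SE 0.23, adjusted p = 8.47e-47, groups not overlapping). Its second probe set fell as well, by 1.32 (SE 0.14, adjusted p = 3.08e-13). Col4a6 fell by 2.01 (SE 0.37, adjusted p = 7.06e-06) and Col15a1, a basement membrane collagen related to Col18a1, was lower (-1.91, SE 0.41, adjusted p = 0.000141). All 4 beaded filament chains tested and 4 of 6 type IV chains were lower. Of these, Col6a4 alone kept its call against the positive cells alone, where Col6a1 (-1.02, adjusted p = 0.212), Col6a2 (-1.15, adjusted p = 0.122), Col6a3 (-0.74, adjusted p = 0.424), Col15a1 (-0.83, adjusted p = 0.247) and Col4a6 (-0.83, adjusted p = 0.178) did not.

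Col17a1 rose most in the uterine tumours, from 2.73 to 3.68 in the 7 sorted samples to 4.51 to 11.15 in the 9 tumours (+5.43, SE 0.49, adjusted p = 5.75e-17). Col8a1, a network collagen of vessel walls and remodelled stroma, was 3.80, 3.67, 3.80 and 4.28 in positive and 4.93, 4.46 and 4.25 in negative cells and ran from 7.50 over 9.64 to 11.06 in tumours (+5.20, SE 0.54, adjusted p = 1.32e-13). Col7a1 rose by 1.61 (SE 0.27, adjusted p = 1.2e-06), and these 3 rises held against either sorted group. Of the markers, 6 of 8 basal epithelial genes rose, 8 of 15 fibroblast genes fell and 0 rose, 2 of 8 smooth muscle genes rose, and 3 uterus identity genes fell. Their part was not tested. Across organs Col8a1 was higher in tumours of 4 of 5, all but lung, and Col13a1 lower in 3 of 5, prostate, lung and liver.

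The 66 tumours were compared with one another, each type against the mean of the other 6, in a fit that tested 32 members. Levels differed between the types for 29 of 32 members, against 95.1% of all 13456 genes, and not for Col4a6 (adjusted p = 0.144), Col10a1 or Col13a1. Uterine adenocarcinoma stood highest, with 21 members higher and 0 lower of 32 (29.8% of all genes called, 17.3% higher and 12.5% lower; member median 1.30, all genes 0). Lymphoma stood lowest, with 1 higher and 19 lower (46.6% of all genes, 24.3% higher and 22.3% lower; member median -1.34, all genes -0.06).

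In uterine adenocarcinoma Col17a1 (+4.21, SE 0.37, adjusted p = 7.39e-14), Col1a1 (+3.10, SE 0.46, adjusted p = 3.34e-07) and Col8a1 (+2.71, SE 0.45, adjusted p = 3.9e-06) were the largest excesses. Col1a1 ran from 6.84 over 9.72 to 12.23 in these tumours. They included 8 of 9 fibrillar members, and the count was 21 also without replicate 8 or without replicate 9, which stood apart in single genes. Smooth muscle markers were higher for 6 of 8 genes and fibroblast markers for 6 of 14, with 1 lower. In gastric adenocarcinoma 13 members were higher and 4 lower (47.9% of all genes, 23.8% higher and 24.1% lower), led by Col8a1 (+2.56, SE 0.42, adjusted p = 8.02e-07), Col27a1 (+2.54, SE 0.27, adjusted p = 2.46e-11) and Col5a1 (+1.82, SE 0.36, adjusted p = 3.21e-05), with Col17a1 (-2.74, SE 0.34, adjusted p = 1.59e-09), Col4a4 (-1.18) and Col4a3 (-1.08) lowest. Col27a1 ran from 5.09 over 8.03 to 8.67 there, against a highest type mean elsewhere of 5.81 in uterine adenocarcinoma.

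In prostatic adenocarcinoma 10 members were higher and 3 lower (41.8% of all genes, 22.1% higher and 19.6% lower), led by Col16a1 (+1.85, SE 0.29, adjusted p = 3.4e-07), Col11a1 (+1.81, SE 0.43, adjusted p = 0.000533) and Col8a2 (+1.78, SE 0.38, adjusted p = 0.000106), with Col18a1 (-1.22, SE 0.31, adjusted p = 0.00125), Col4a3 (-0.75, adjusted p = 0.0348) and Col4a4 (-0.62, adjusted p = 0.0325) lower. With the upper quartile as a covariate 6 members were called, 4 higher and 2 lower. In this type 9 of 14 fibroblast and 5 of 8 smooth muscle markers were higher and 1 and 0 lower. In skin carcinoma 6 were higher and 1 lower (41.7% of all genes, 19.2% higher and 22.5% lower). Col17a1 exceeded the mean of the other types by 6.03 (SE 0.44, adjusted p = 3.52e-18), Col7a1 by 2.97 (SE 0.26, adjusted p = 8.35e-15) and Col6a3 by 1.31 (SE 0.48, adjusted p = 0.0236). Skin carcinoma and uterine adenocarcinoma overlapped for both Col17a1 and Col7a1, Col7a1 running from 6.85 to 8.66 and from 5.48 to 8.37. Of 8 basal epithelial markers 7 were higher and 1 lower in skin carcinoma, and all 7 skeletal muscle markers were higher there. The part of any marker in these type differences was not tested.

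Bronchial adenoma joined low fibrillar to high type IV levels. Of 32 members 7 were higher and 15 lower (58.1% of all genes, 23.9% higher and 34.1% lower), with 8 of 9 fibrillar members lower and 5 of 6 type IV chains higher. Col4a4 (+4.15, SE 0.21, adjusted p = 8.23e-26), Col4a3 (+3.85, SE 0.26, adjusted p = 4.49e-20) and Col23a1, a membrane collagen (+2.35, SE 0.20, adjusted p = 9.76e-16), were highest, and Col5a1 (-2.91, SE 0.33, adjusted p = 2.88e-11), Col17a1 (-2.74, SE 0.31, adjusted p = 3.57e-11) and Col1a1 (-2.67, SE 0.38, adjusted p = 2.29e-08) lowest. Endothelial markers were higher for 8 of 9 genes and all 8 smooth muscle markers lower.

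In hepatocellular carcinoma 2 members were higher and 21 lower (66.3% of all genes, 25% higher and 41.3% lower), the higher ones being Col18a1 (+1.94, SE 0.28, adjusted p = 1.96e-08) and Col20a1 (+0.44). Col17a1 (-2.60, SE 0.32, adjusted p = 2.11e-10), Col6a1 (-2.54, SE 0.34, adjusted p = 2.9e-09) and Col1a1 (-2.43, SE 0.40, adjusted p = 2.47e-07) were lowest, and 11 of 14 fibroblast markers were lower with 1 higher. In lymphoma Col6a4 was the member higher (+0.92, SE 0.27, adjusted p = 0.00369), at 3.67, 3.71 and 4.66. Its call was lost without replicate 3 (0.60, adjusted p = 0.135), and the second probe set of Col6a4 gave -0.02. Col4a5 (-3.85, SE 0.63, adjusted p = 8.72e-07), Col18a1 (-3.59, SE 0.53, adjusted p = 6.36e-08) and Col8a1 (-3.47, SE 0.73, adjusted p = 7.01e-05) were lowest there. Col4a5 read 2.60, 3.10 and 3.05 and Col18a1 4.30, 4.51 and 4.53, below every other tumour for both genes. Without lymphoma replicate 1, 10 members were called in place of 20. The leukocyte markers (8 of 8 higher) and epithelial markers (9 of 9 lower) moved with these differences, and their part was not tested.

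**Figure D5:**
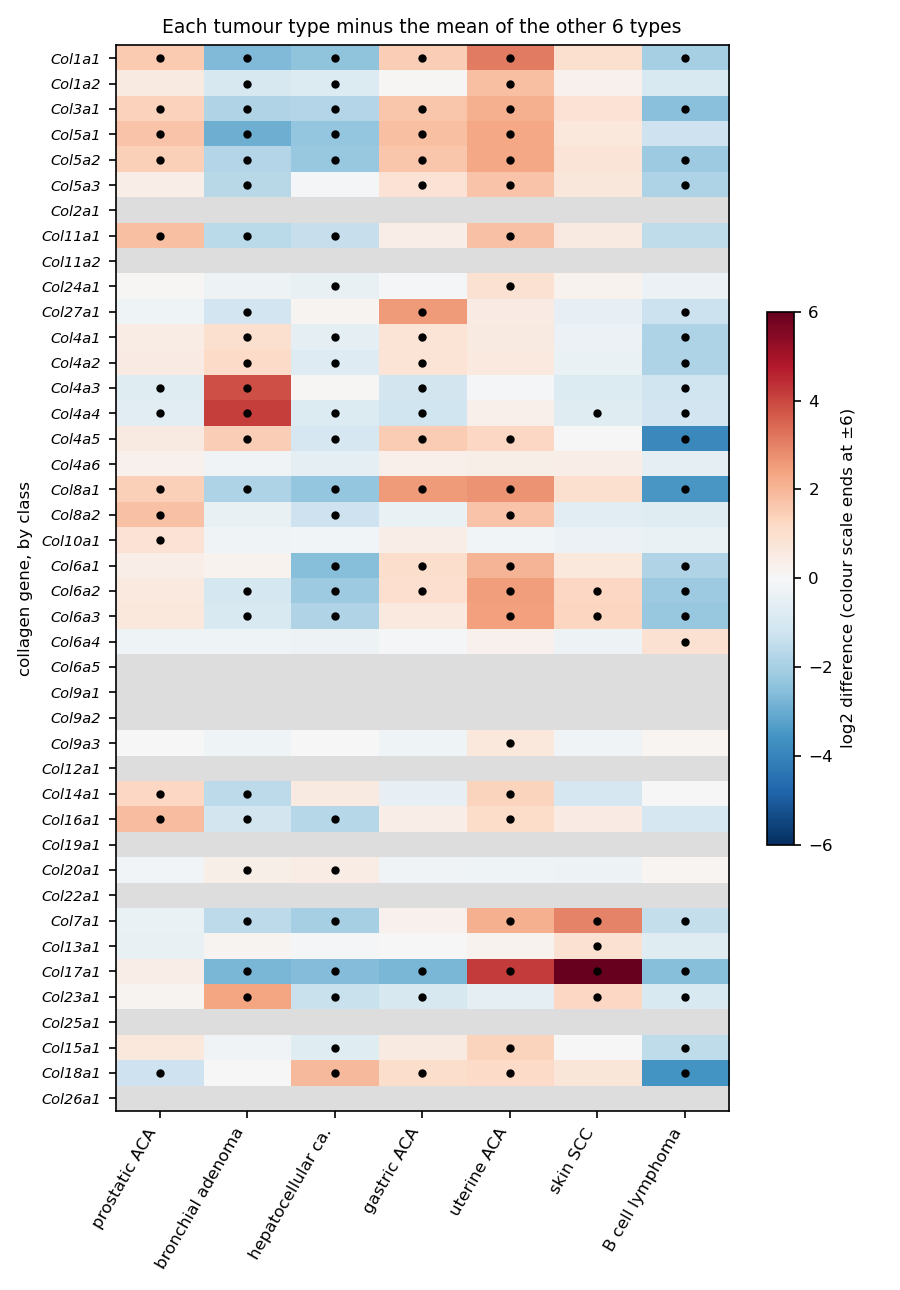
Heat map of the log2 difference of each tumour type from the mean of the other 6 types (columns) for the 42 collagen genes (rows, grouped by class); red is higher, blue lower, dots mark an adjusted p under 0.05 and grey rows were not tested (ACA, adenocarcinoma; SCC, squamous cell carcinoma; ca., carcinoma). The uterine column holds 21 red dots and 0 blue ones, the bronchial column pairs red type IV rows with blue fibrillar rows, and the lymphoma column is mostly blue.

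Genes that build, process and bind collagen were read from lists beside the members, with the counts set against the shares of all genes given above. In positive prostate cells, 8 of 11 genes of propeptide cleavage and cross-linking were lower and 0 higher. They were led by Pcolce2, an enhancer of procollagen cleavage (-5.49, SE 0.55, adjusted p = 3.87e-10). Lox, the enzyme that cross-links fibrils, was also lower (-4.16, SE 0.52, adjusted p = 7.6e-08). Loxl1, on this list and on the fibroblast list, had means of 4.77 in positive and 9.06 in negative cells. Of the small proteoglycans and other fibril partners 10 of 11 were lower, led by Lum (-4.93, SE 0.58, adjusted p = 1.41e-08) and Tnxb (-4.89). Among basement membrane partners 7 of 11 were lower, led by Nid1 (-3.73) and Lamc1 (-3.22), among modification genes 5 of 17, led by Sparc (-3.01) and Colgalt2 (-2.17), and among receptors 2 of 8, Ddr2 (-4.30) and Mrc2 (-2.26). In these 5 lists 0 genes were higher in positive prostate cells.

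In uterus the lists moved less evenly. Cleavage and cross-linking genes were lower for 6, led by Adamts3 (-2.55). Lox was lower by 2.32, and Loxl1 had means of 7.55 in positive and 9.92 in negative cells. Fibril partners were lower for 6, led by Thbs2 (-2.50) and Aspn (-2.19), and basement membrane partners for 5, led by Hspg2 (-2.43) and Lama2 (-2.31). Of the modification genes 5 were lower, led by Colgalt2 (-2.64) and Plod2 (-2.42), and P3h2, a prolyl 3-hydroxylase, was higher (+2.01). Of the receptors Ddr2 (-2.23) and Mrc2 (-2.16) were lower and Lair1, found on leukocytes, higher (+3.6). In positive liver cells Pcolce2 (-2.87) and Pcolce (-1.39), Pxdn (-2.22) and Nid1 (-1.95), Lum (-2.29) and Prelp (-1.92), Sparc (-1.65) and Crtap (-1.51), and Lair1 (-2.75) were lower. In positive stomach cells, where no fibrillar chain of types I, III or V was called, Lox was higher (+3.70, SE 0.54, adjusted p = 9.48e-06), as were Mia3 (+1.14) and Ppib (+0.93), and in lung Lum was lower (-2.69, adjusted p = 0.00275) and P3h2 higher (+2.20, adjusted p = 0.00608).

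In gastric adenocarcinoma the partner lists rose with the collagens. Higher were 12 of 18 modification genes, led by Sparc (+6.15) and Plod2 (+3.78), and 10 of 12 cleavage and cross-linking genes, led by Pcolce (+4.89). Bmp1 was higher by 4.27, and Loxl1 had means of 8.13 in these tumours and 3.65 and 3.5 in positive and negative stomach cells. Also higher were 10 basement membrane partners, led by Nid1 (+5.83) and Lamb1 (+4.93), and 7 fibril partners, led by Postn (+5.98) and Bgn (+5.92). Lower were 2 modification genes, among them Mia3 (-0.73), and the receptor Ddr1 (-0.58), while Itgb1 (+3.03) and Itga2 (+2.83) were higher. In bronchial adenoma 7 fibril partners were lower and 0 higher, led by Lum (-3.42) and Ogn (-3.36), Pcolce2 was lower (-3.93), and Bmp1 (+2.41), P4ha2 (+2.31) and Lama3 (+2.20) were higher. Lamb3, a basement membrane partner also on the basal epithelial list, had a larger rise in its means. It was at 10.23 in these tumours, against 4.82 and 5.26 in positive and negative lung cells. In prostatic adenocarcinoma Thbs2 (+3.19), Postn (+1.76) and Lox (+1.73) were higher, and Lama2 (-2.78), Tnxb (-2.73) and Pcolce2 (-2.31) lower. Yet the tumour means of Postn (9.67) and Lox (9.4) lay below those of negative prostate cells alone (10.27 and 9.74). That of Pcolce2 (4.27) lay above the mean of positive prostate cells (3.83). Lamb3 had a mean of 7.24 in the prostatic tumours, against 4.42 and 5.09 in positive and negative prostate cells. In uterine adenocarcinoma Thbs2 (+2.66), Lama3 (+2.22) and Itga1 (+2.18) were higher, and Ogn (-4.61), Tnxb (-4.42) and Lama2 (-3.43) lower. The Lamb3 mean there was 9.11, against 6.79 and 5.69 in positive and negative uterine cells. In hepatocellular carcinoma Lum (+1.82), Postn (+1.74), Nid1 (+1.61) and Lox (+1.51) were higher and Pcolce2 (-2.94) and Lama3 (-1.81) lower. Lama2 and Tnxb fell in prostate and uterus, and Thbs2 rose in the same tumours, but not in these alone. In bronchial adenoma the Lama2 mean was 4.57, against 7.6 and 8.19 in positive and negative lung cells. The Tnxb mean there was 4.56, against 7.27 and 7.96. In gastric adenocarcinoma the Thbs2 mean was 8.11, against 2.95 and 3.11 in positive and negative stomach cells.

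Between the tumour types, uterine adenocarcinoma had 13 modification genes higher and 0 lower, led by Plod2 (+2.29) and Serpinh1 (+2.15), the collagen chaperone. It also had 8 basement membrane partners higher and 0 lower, led by Lama3 (+3.23) and Pxdn (+2.58). Lymphoma had 0 higher and 7 lower of the modification genes and 0 higher and 9 lower of the basement membrane partners. Lama3 was among the lower ones (-4.11), and Postn was lower by 4.65. The Lamb3 mean was 3.62 in lymphoma, 10.23 in bronchial adenoma and between 4.52 and 9.11 in the other types. Skin carcinoma had P3h2 (+2.90) and Lama3 (+2.73) higher, prostatic adenocarcinoma Lox (+2.27), Lum (+2.11) and Fmod (+2.04), and bronchial adenoma Ogn (+2.58), with Lum lower (-4.10).

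How alike the members' patterns are was described by Pearson's correlation over the 19 group means, with no test, since the groups share tissues and arrays. The median over all 861 pairs was 0.18, and over the 7 pairs of genomic neighbours 0.94. Col4a1 with Col4a2 and Col6a1 with Col6a2 each gave 0.99, Col3a1 with Col5a2 0.97 and Col4a3 with Col4a4 0.94, while Col4a5 with Col4a6, likewise divergent, gave 0.70, Col9a1 with Col19a1 0.51 and Col6a4 with Col6a5 0.27. Col9a1, Col19a1 and Col6a5 hardly varied, their group means spanning 0.79, 0.79 and 0.48. Among the members whose means spanned more than 2, the other 430 pairs had a median of 0.47, so that part of the likeness is shared by varying collagens in general. Col4a5 and Col4a6 parted in the lung groups and in the tumours. Col4a6 was at 8.98 and 8.49 in positive and negative prostate and near the array median in bronchial adenoma (3.49), where Col4a5 was at 7.50.

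Several members have more than 1 probe set. The second set of Col5a3 lay below the array median in all 19 groups, so only the brighter one was informative. For Col14a1 a second set gave -4.38 in prostate and a further one did not vary. For Col8a1, the second set gave 4.68 in uterine and 4.22 in gastric tumours, close to the values above. Col12a1, a common fibril-associated chain, had a single dim probe set. Of the 42 members, 6 were dropped by the filter from all 3 fits and so were never tested (Col2a1, Col6a5, Col9a2, Col12a1, Col19a1 and Col26a1).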

How the data were processed

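The deposited values are log2 probe set signals. The submitters' processing notes name RMA and Partek 6.6, and the order of steps is not given in the sources used here. Biotin-labelled RNA was read on single-colour arrays, and no count or depth exists, so array number limits precision. The deposited log2 values were used with no further scaling. Of 45141 probe sets, 28898 named 1 gene, 551 several and 15692 none, and only the first were used.

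Group means were fitted with limma 3.58.1 in R 4.3.3 in 3 models (51 sorted samples, 14081 genes; all 117, 14663; 66 tumours, 13456), and moderated p-values were Benjamini-Hochberg adjusted over every gene tested, with a call at 0.05. Genes had to exceed the array median in at least 3 arrays of the model. The code was tested on simulated data. Members and lists were chosen with earlier results of these data known. Named genes are the 3 largest called changes each way per comparison, plus Col1a1, Col1a2, Col3a1, Col4a1, Col4a2, Col6a1, Col6a3, Col7a1, Col17a1 and Col18a1. Others were named after their values were seen. Alternatives covered probe set choice, filter, scaling, covariates, blocks and left-out samples. Samples with the same title number were not consistently alike (7 of 19 correlations above 0.1, from -0.34 to 0.59). Positive and negative samples of a tissue with neighbouring sample codes were more often alike (10 of 13 above 0.1, from -0.09 to 0.49). Whether either number marks true pairs cannot be told from these correlations. With these codes as blocks (correlation 0.379), all 69 collagen calls of the sort comparisons stayed. The labels do not say what neighbouring codes share.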

Additional observations from a re-analysis of the deposited data

Results flagged for a closer look

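Among 10 collagen genes in 10 groups of 4 to 10 samples, 17 of 100 combinations held a sample far from the rest, where chance gives about 1 in 20. The genes were read in the same samples and several flags fell on the same sample. The combinations are therefore not independent, and the excess was not tested. Prom1-negative prostate replicate 1 was low for Col1a1 (6.86, others 8.33 to 8.56), Col3a1 (11.48, others 12.56 to 12.79), Col4a1 (8.20, others 9.93 to 10.29), Col4a2 (7.06, others 8.89 to 9.29) and Col6a3 (9.46, others 11.02 to 11.25). The same sample had the lowest fibroblast and endothelial marker means of its group (6.79 and 5.42). Prom1-negative lung replicate 7 was low for Col4a1 (7.52, others 10.14 to 10.84) and Col4a2 (6.45, others 9.36 to 10.09), with an endothelial marker mean of 6.14 against 9.53 to 10.20.

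Skin carcinoma replicate 5 was low for Col4a1 (7.37, others 9.48 to 9.98), Col4a2 (6.54, others 8.87 to 9.33) and Col6a1 (6.22, others 8.08 to 8.84), with an endothelial marker mean of 4.27 against 5.81 to 7.02. Replicate 3 was high for Col1a2 (5.35, others 2.71 to 3.32). Uterine adenocarcinoma replicate 9 was high for Col4a1 (11.45, others 9.48 to 10.39) and Col4a2 (11.13, others 8.75 to 9.74), and replicate 8 low for Col3a1 (10.89, others 12.50 to 13.54). Prostatic adenocarcinoma replicate 8 was low for Col6a3 (6.44, others 8.36 to 10.31), a Prom1-negative stomach sample high for Col1a1 (3.98, others 2.98 to 3.12), and Prom1-positive uterus replicate 2 high for Col7a1 (5.55, others 4.41 to 4.56). The part of the markers was not tested.

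The difference between Prom1-positive and negative cells was unequal between tissues (limma interaction, adjusted p) for Col1a1 (0.000184), Col1a2 (0.000173), Col3a1 (0.0426), Col6a1 (0.00147), Col6a3 (0.00535) and Col7a1 (0.00748). The difference between tumours and sorted cells was unequal between organs for Col1a1 (6.12e-15), Col1a2 (0.00821), Col3a1 (5.2e-17), Col4a1 (2.59e-17), Col4a2 (2.78e-15), Col6a1 (1.59e-13), Col6a3 (2.74e-19), Col7a1 (1.02e-07), Col17a1 (4.84e-17) and Col18a1 (3.84e-07).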

How the results depend on the processing

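No called collagen gene reversed under the mean of all probe sets, no filter, repeated quantile normalization, or omission of the arrays with an upper quartile under 6. With title number as a replicate block, 32 of the 69 collagen calls of the sort comparisons were lost. The members called became 10 in prostate, 4 in liver, 1 in stomach, 8 in uterus and 14 in the mean of 6 tissues. It is not known whether these numbers pair the samples. Fitting a tissue alone gave 5 in liver and 0 in stomach by limma (5 with an unadjusted p under 0.05). With negative cells alone as normal, 12 members were called for prostate tumours, of which 6 were among the original 19, and 8 for liver tumours, all among the original 15, and the prostate differences of Col16a1 (-0.08), Col3a1 (-0.37), Col5a1 (-0.24) and Col5a2 (-0.11) reversed. With positive cells alone, 9 were called for lung tumours, all among the original 16, and 9 for uterus tumours, of which 5 were among the original 14, and Col24a1 reversed in uterus (0.13). The upper quartile covariate left 6 in prostatic adenocarcinoma and reversed Col9a1 in stomach tumours (0.22) and Col4a1 in hepatocellular carcinoma (0.04). The splits became 2 higher and 1 lower in the stomach sort (also after quantile normalization), 16 and 3 in stomach tumours and 9 and 4 in liver tumours. The causes were not tested.

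Over refits without 1 sample, the members called ranged from 12 to 17 in prostate, 0 to 1 in lung, 0 to 0 in intestine, 4 to 12 in liver, 1 to 3 in stomach, 11 to 19 in uterus and 19 to 24 in their mean. Tumour differences gave 16 to 20 in prostate, 14 to 17 in lung, 13 to 16 in liver, 25 to 27 in stomach and 12 to 16 in uterus, and lymphoma 10 to 15. Refits chosen after seeing the data (prostatic replicate 8, uterine replicates 8 and 9, skin replicate 5) gave 16 in prostatic, 21 in uterine and 8 in skin tumours. Dim probe sets such as that of Col1a2 limit what can be seen.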
